A study of Mus musculus with 16 samples.

Results

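The genes described here are 10 members of the NRF2 programme that deal with thioredoxin, quinones and peroxides. They are the factor gene Nfe2l2, its partner gene Keap1, and 8 genes taken as targets: Nqo1, Txnrd1, Srxn1, Prdx1, Prdx6, Cat, Esd and Aox1. The members were chosen by gene name, with earlier results of these data known. All 10 were found once among the 56748 genes of the count table. They passed the filter on low counts, which left 13438 genes to test. NRF2, the protein of Nfe2l2, is a transcription factor that turns on antioxidant and detoxifying enzymes. In unstressed cells KEAP1 binds it and hands it to the proteasome, and electrophiles or oxidants that modify KEAP1 cysteines let NRF2 accumulate, enter the nucleus with a small MAF protein and bind antioxidant response elements. Its control is therefore largely at the level of the protein, which mRNA counts do not measure. In macrophages NRF2 is known for limiting oxidant damage and for restraining inflammatory gene expression.

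Messenger RNA was measured by RNA sequencing in primary bone marrow-derived macrophages, cells grown from wild type marrow with supernatant of L929 cells, a fibroblast line that secretes macrophage growth factor. The marrow came from 4 male C57BL6 mice, whose age is not given in the sources used here, and each mouse gave 1 library to each of 4 groups. The SR9009 and LPS group received 10 µM SR9009, a synthetic agonist of the REV-ERB nuclear receptors of the circadian clock, for 16 h and then 100 ng/mL LPS, the endotoxin of Gram-negative bacteria and the ligand of TLR4, for 6 h. The LPS group received the same LPS, the SR9009 group the same SR9009, and the DMSO group the vehicle. For the LPS group the labels list only LPS, so whether those cells had DMSO overnight is not given there.

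Library totals ran from 12616442 to 24214863 counts, with 13298 to 18947 genes detected. Lowest on both measures was the SR9009 library of mouse 1, and the next lowest library had 16419 genes detected. It also lay at 184.6 on the second principal component, against -38.7 to 32.2 for the other 15 libraries, and had the highest mitochondrial share at 1.64%. Values of the 10 genes that depend on it, and counts of gene lists that it moves, are therefore also given without it. The summed level of 7 macrophage markers was 5230 to 10000 CPM (counts relative to library size, scaled by the TMM method) in every library. Those of the other lineages were low, at most 15.9 CPM for fibroblast, 7.24 CPM for neutrophil and 6.66 CPM for T cell markers, and all 3 of these highest values came from libraries with LPS. Ly6g, a defining neutrophil marker, was at 0 in all 4 groups. The sum of the 8 neutrophil and granulocyte precursor markers was nonetheless higher with LPS. Its median was 5.36 CPM with LPS and 2.32 CPM with SR9009 and LPS, against 0.555 CPM with SR9009 and 0.291 CPM with DMSO. The part of these other lineages in the results below was not tested. The inflammatory cytokine gene Tnf averaged 924.4 ± 163 CPM in LPS and 12.5 ± 3.90 CPM in DMSO macrophages (SD, n = 4 each). Arntl, a clock gene that REV-ERB represses, averaged 19.3 ± 11.3 CPM in SR9009 and 15.3 ± 2.53 CPM in DMSO macrophages, and was not called in edgeR's quasi-likelihood test (adjusted p = 0.775).

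The promoters of 3 targets are printed because they hold the letters of the core antioxidant response element, the sequence that NRF2 binds. The windows span 250 bases before to 50 bases after the annotated start (RefSeq, GRCm38.p6), and 9 of the 10 genes, all but Prdx6, had at least 1 window in that table. TGACNNNGC and TGAGNNNGC were searched on both strands, and capitals mark each match. The windows are Srxn1 at chr2:152105274-152105573, Prdx1 at chr4:116685349-116685648 and 1 of the Txnrd1 windows at chr10:82858956-82859255, all on the plus strand.
Srxn1: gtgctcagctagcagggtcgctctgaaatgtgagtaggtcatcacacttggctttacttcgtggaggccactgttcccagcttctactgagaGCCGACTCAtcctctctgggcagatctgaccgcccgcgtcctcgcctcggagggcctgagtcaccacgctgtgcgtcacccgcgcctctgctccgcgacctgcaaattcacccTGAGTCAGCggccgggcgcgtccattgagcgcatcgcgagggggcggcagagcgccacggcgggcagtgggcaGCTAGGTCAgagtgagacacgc
Prdx1: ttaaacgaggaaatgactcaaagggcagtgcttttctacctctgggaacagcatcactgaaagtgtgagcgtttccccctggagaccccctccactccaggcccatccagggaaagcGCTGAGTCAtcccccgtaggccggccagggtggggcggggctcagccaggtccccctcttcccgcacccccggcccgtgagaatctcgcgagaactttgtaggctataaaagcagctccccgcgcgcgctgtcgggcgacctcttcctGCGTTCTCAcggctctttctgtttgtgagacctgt
Txnrd1: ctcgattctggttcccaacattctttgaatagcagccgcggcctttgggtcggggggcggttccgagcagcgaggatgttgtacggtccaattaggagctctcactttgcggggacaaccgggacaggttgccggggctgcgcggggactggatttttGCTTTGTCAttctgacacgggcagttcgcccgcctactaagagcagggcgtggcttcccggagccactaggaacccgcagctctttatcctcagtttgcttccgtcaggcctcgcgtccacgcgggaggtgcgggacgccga
Srxn1 had 3 matches. TGAGTCGGC lay 158 to 150 bases before the start on the minus strand, TGAGTCAGC lay 45 to 37 bases before it on the plus strand, and TGACCTAGC lay 29 to 37 bases into the transcribed side on the minus strand. Prdx1 had 2 matches, both on the minus strand: TGACTCAGC at 133 to 125 bases before the start and TGAGAACGC at 16 to 24 bases into the transcribed side. Txnrd1 had 1 match, TGACAAAGC on the minus strand, 92 to 84 bases before the start, and its other windows held none. Nfe2l2 also had 1 match, TGACTCCGC at 240 to 232 bases before its start. The windows of Keap1, Nqo1, Cat, Esd and Aox1 held no match, and sequence outside the windows was not searched. Over all genes, 27.8% of 32851 such windows held at least 1 match, so these letters are common. Among the 11 windows of the 9 genes, 4 held a match. TGANTCA, the site of AP-1 factors, overlapped the match at 45 bases before the Srxn1 start and the match at 133 bases before the Prdx1 start. It was also present at 102 to 96 bases before the Srxn1 start, 237 to 231 bases before the Prdx1 start and 220 to 214 bases before the Aox1 start, and 7.81% of all windows held it.

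SR9009 raised most of the targets, while neither Nfe2l2 nor Keap1 was called with it. Against DMSO, 6 of the 10 genes were called higher and 0 lower, namely Nqo1, Prdx1, Prdx6, Cat, Esd and Aox1 (edgeR's quasi-likelihood test, adjusted p under 0.05). Over all genes 0.313% were called higher and 0.566% lower in that comparison, 0.878% in all. Against LPS alone, SR9009 and LPS gave 7 of the 10 called higher and 0 lower, namely those 6 and Srxn1, where 1.06% of all genes were called higher and 0.737% lower, 1.79% in all. In each of these comparisons the SR9009 libraries of 7 of the 10 genes lay above all libraries without it and those of 0 lay below. The shares of all genes that did so were 4.9% above and 4.64% below against DMSO, and 6.66% above and 7.78% below against LPS. The median log2 fold change of the 8 targets was 1.28 for SR9009 versus DMSO and 2.09 for SR9009 and LPS versus LPS, beside medians of 0.01 and 0.02 over all genes. The 10 genes were chosen with earlier results of these data known, so these contrasts with all genes are not an independent test. In bulk RNA, fewer cells of a type and less RNA per cell cannot be told apart.

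**Figure D1:**
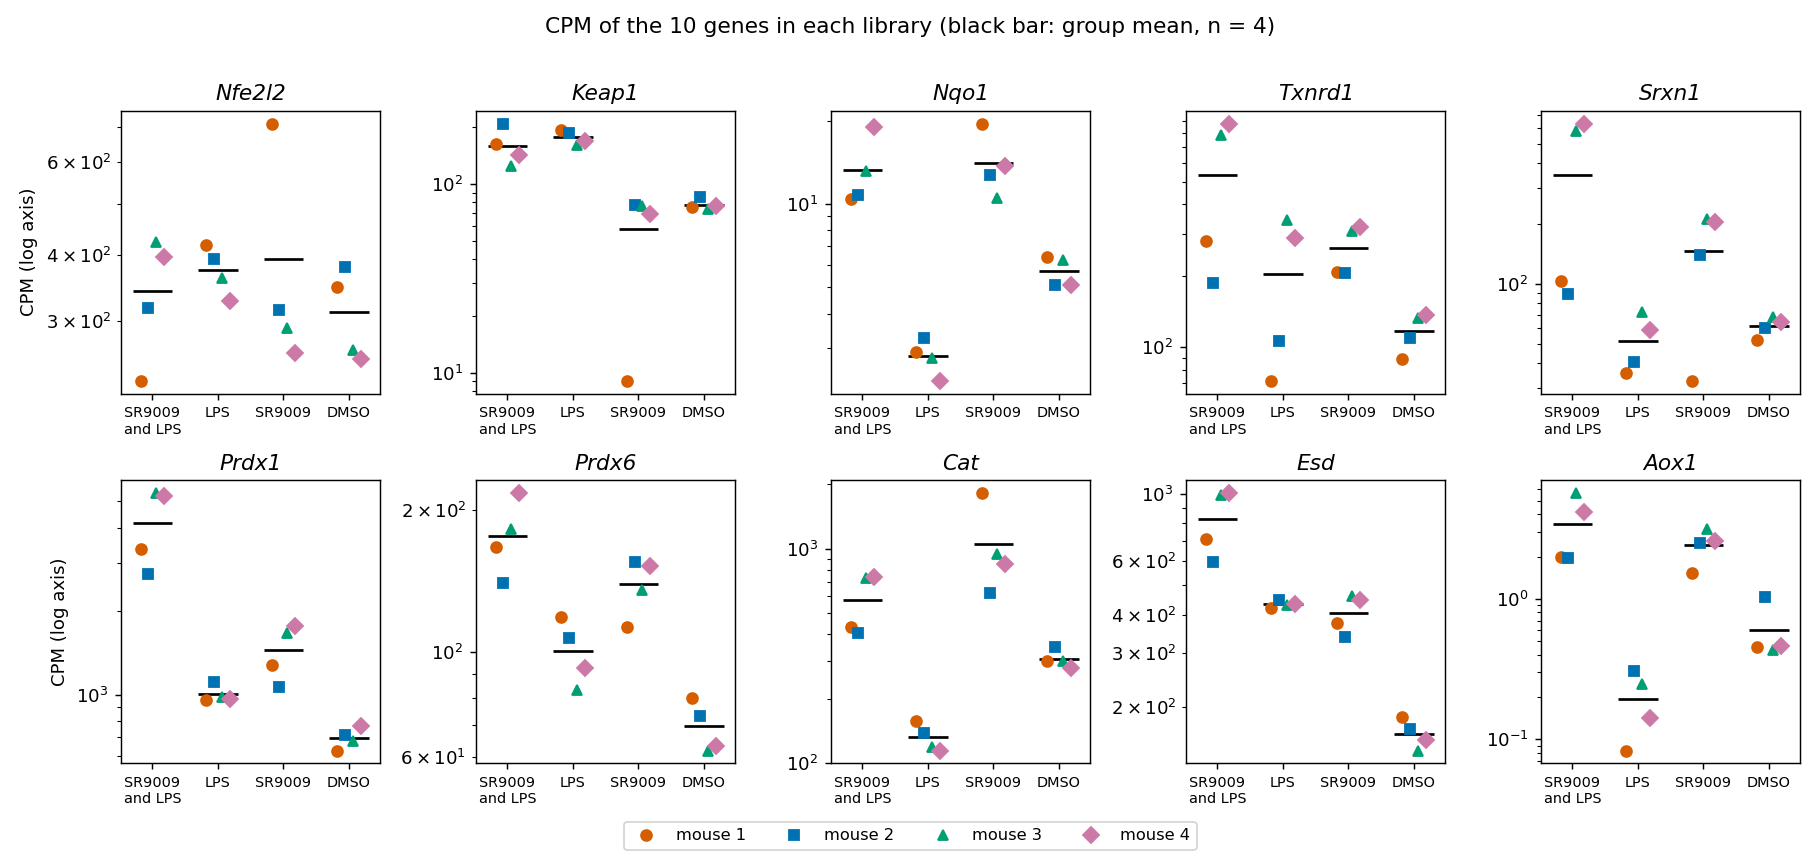
CPM (log axis) of each of the 10 genes in the 16 libraries, 1 panel per gene, with the groups in the order SR9009 and LPS, LPS, SR9009 and DMSO. Symbols mark the 4 mice and black bars the group means. Keap1 in the SR9009 library of mouse 1 lies at 9.06 CPM, below the 69.8 to 77.1 CPM of the other 3 SR9009 libraries.

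Nfe2l2, the gene of NRF2 itself (chromosome 2, 75505857 to 75534985, minus strand, GRCm39), had 231.3, 318.2, 423.1 and 397.7 CPM in SR9009 and LPS macrophages of mice 1 to 4. It had 418.2, 393.9, 362.8 and 327.3 CPM with LPS, 710.2, 315.3, 290.9 and 260.7 CPM with SR9009, and 348.7, 379.5, 264.9 and 254.5 CPM with DMSO. The groups overlapped in every comparison, and the SR9009 library of mouse 1 was the highest of all 16. No comparison was called for Nfe2l2 in edgeR's test: the log2 fold changes were 0.34 ± 0.30 (SE) for SR9009 versus DMSO (adjusted p = 0.694) and -0.13 ± 0.30 for SR9009 and LPS versus LPS (adjusted p = 0.916). Without the SR9009 library of mouse 1, the value for SR9009 versus DMSO was -0.15 (adjusted p = 0.984).

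Keap1, which holds NRF2 for degradation (chromosome 9, 21141026 to 21150657, minus strand), had 163.2, 209.7, 124.3 and 142.7 CPM with SR9009 and LPS and 192.8, 187.2, 161.6 and 169.4 CPM with LPS. It had 9.06, 77.1, 76.8 and 69.8 CPM with SR9009 and 75.7, 85.7, 73.9 and 76.3 CPM with DMSO. All 8 libraries with LPS were higher than all 8 without it. Keap1 was called higher in LPS than in DMSO macrophages (log2 fold change 1.19 ± 0.42, adjusted p = 0.0341 in edgeR's test) and in SR9009 and LPS than in SR9009 macrophages (1.46 ± 0.43, adjusted p = 0.0163). The call for LPS versus DMSO was lost in 7 of 16 other settings, among them upper-quartile scaling and each fit without mouse 2, 3 or 4. That for SR9009 and LPS versus SR9009 was kept in 12 of 16, with log2 fold changes from 1.12 to 1.87. It was lost with only the groups compared and without mouse 2, 3 or 4. The within-mouse log2 ratio there was 4.17 in mouse 1, whose SR9009 library was low, and 1.44, 0.695 and 1.03 in mice 2 to 4. SR9009 itself gave no call, with -0.42 ± 0.42 against DMSO (adjusted p = 0.739), and -0.11 (adjusted p = 0.993) when that library of mouse 1 was left out. An antisense gene, Gm16754, overlaps Keap1 and had 8 to 95 counts per library. Whether the counting used strand is not given in the sources used here.

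Nqo1, the quinone reductase commonly used as a readout of NRF2 (chromosome 8, 108114857 to 108129838, minus strand), had 10.4, 10.7, 13.2 and 18.9 CPM in SR9009 and LPS macrophages of mice 1 to 4 and 2.91, 3.28, 2.77 and 2.28 CPM in LPS macrophages. It had 19.5, 12.7, 10.5 and 13.7 CPM with SR9009 and 6.42, 5.08, 6.25 and 5.10 CPM with DMSO. All 8 libraries with SR9009 were above all 8 without it, and the LPS libraries were the lowest of all. Nqo1 was higher by 2.24 ± 0.27 (log2, SE) with SR9009 and LPS than with LPS (adjusted p = 0.00056 in edgeR's test) and by 1.30 ± 0.25 with SR9009 than with DMSO (adjusted p = 0.0237). LPS alone lowered it relative to DMSO (log2 fold change -1.02 ± 0.26, adjusted p = 0.0051).

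Txnrd1 encodes thioredoxin reductase of the cytosol, which recharges thioredoxin with NADPH (chromosome 10, 82669785 to 82733546, plus strand). It had 280.7, 185.8, 790.2 and 879.8 CPM with SR9009 and LPS, 71.7, 105.5, 345.0 and 289.1 CPM with LPS, 208.1, 205.9, 308.5 and 321.3 CPM with SR9009, and 88.3, 108.9, 132.6 and 136.2 CPM with DMSO. The SR9009 libraries all lay above the DMSO libraries, but the SR9009 and LPS libraries overlapped the LPS libraries, since mice 3 and 4 were high in both. Txnrd1 was higher with SR9009 in 4 of 4 mice in both settings and was not called in either: the log2 fold change was 1.40 ± 0.51 against LPS (adjusted p = 0.206 in edgeR's test) and 1.16 ± 0.51 against DMSO (adjusted p = 0.405). With the mouse as a block, the value against LPS was 1.40 and passed (adjusted p = 0.0322), and that against DMSO was 1.13 (adjusted p = 0.124). Antisense gene Gm38560 (7 to 101 counts per library) and Eid3 (0 to 27) overlap Txnrd1.

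Srxn1 encodes sulfiredoxin, which restores overoxidized peroxiredoxins (chromosome 2, 151947436 to 151953296, plus strand), and its promoter held the 3 element matches printed above. It had 103.5, 88.4, 579.0 and 632.6 CPM with SR9009 and LPS and 35.6, 40.6, 72.3 and 58.6 CPM with LPS. It had 32.7, 138.8, 211.2 and 203.4 CPM with SR9009 and 52.4, 60.0, 68.0 and 64.5 CPM with DMSO. Every SR9009 and LPS library was above every LPS library, and mice 3 and 4 were far above mice 1 and 2 with both agents. Srxn1 was called higher with SR9009 and LPS than with LPS (log2 fold change 2.76 ± 0.64, adjusted p = 0.0372 in edgeR's test). This call was lost in 8 of 16 other settings, among them limma-voom and each fit without mouse 2, 3 or 4, with adjusted p of up to 0.37, while the log2 fold change ran from 2.20 to 2.98 over the 16. Against DMSO, SR9009 gave 1.26 ± 0.60 with no call (adjusted p = 0.429), with the library of mouse 1 below its DMSO library and the other 3 above theirs. Without that library the value was 1.54 (adjusted p = 0.253).

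Prdx1 encodes a peroxiredoxin of the cytosol that reduces hydrogen peroxide with electrons from thioredoxin (chromosome 4, 116542741 to 116558019, plus strand). It had 3360, 2731, 5342 and 5218 CPM in SR9009 and LPS macrophages and 952.4, 1109, 980.1 and 962.6 CPM in LPS macrophages. It had 1279, 1065, 1674 and 1774 CPM with SR9009 and 627.0, 714.7, 679.3 and 767.5 CPM with DMSO. The SR9009 and LPS libraries stood above all other 12 libraries. The log2 fold change was 2.06 ± 0.24 for SR9009 and LPS versus LPS (adjusted p = 0.00056 in edgeR's test), 1.06 ± 0.23 for SR9009 versus DMSO (adjusted p = 0.0433) and 1.52 ± 0.23 for SR9009 and LPS versus SR9009 (adjusted p = 0.000135). LPS alone gave 0.52 ± 0.23 over DMSO with no call (adjusted p = 0.0834), although the groups did not overlap. With the mouse as a block this value was 0.53 and passed (adjusted p = 0.0446).

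Prdx6 encodes a peroxiredoxin that relies on glutathione and also acts on phospholipids (chromosome 1, 161067682 to 161078789, minus strand). It had 166.8, 140.1, 181.8 and 216.7 CPM with SR9009 and LPS, 118.4, 107.0, 83.3 and 92.6 CPM with LPS, 113.2, 155.1, 135.5 and 152.0 CPM with SR9009, and 79.9, 73.2, 61.8 and 63.3 CPM with DMSO. Each group with SR9009 lay above its counterpart without it, and the fold changes with SR9009 were the smallest of the 8 targets. The log2 fold change was 0.81 ± 0.19 for SR9009 and LPS versus LPS (adjusted p = 0.0363 in edgeR's test) and 1.00 ± 0.19 for SR9009 versus DMSO (adjusted p = 0.0191). LPS alone gave 0.53 ± 0.19 over DMSO (adjusted p = 0.0325), a call lost in 5 of 16 other settings: upper-quartile scaling, no filter and each fit without mouse 2, 3 or 4. The call for SR9009 versus DMSO was kept in 11 of 16 and that for SR9009 and LPS versus LPS in 12. Both were lost with no filter and without mouse 2, 3 or 4.

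Cat encodes catalase, the peroxisomal enzyme that splits hydrogen peroxide without a reductant (chromosome 2, 103284194 to 103315505, minus strand). It had 431.4, 403.2, 729.1 and 737.0 CPM with SR9009 and LPS and 157.1, 139.1, 119.4 and 114.6 CPM with LPS. It had 1815, 619.1, 943.5 and 851.6 CPM with SR9009 and 298.4, 347.3, 300.1 and 279.5 CPM with DMSO. All 8 libraries with SR9009 were above all 8 without it, and the LPS libraries were below the DMSO libraries. The log2 fold change was 2.12 ± 0.31 for SR9009 and LPS versus LPS (adjusted p = 0.00258 in edgeR's test), 1.79 ± 0.30 for SR9009 versus DMSO (adjusted p = 0.0104) and -1.21 ± 0.30 for LPS versus DMSO (adjusted p = 0.00426). Without the SR9009 library of mouse 1, the highest of all, SR9009 versus DMSO gave 1.35 (adjusted p = 0.00601).

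Esd encodes S-formylglutathione hydrolase, an esterase that completes the removal of formaldehyde through glutathione (chromosome 14, 74969737 to 74988205, plus strand). It had 707.9, 595.8, 992.3 and 1002 CPM with SR9009 and LPS, 423.0, 446.9, 432.7 and 434.9 CPM with LPS, 376.0, 338.2, 460.2 and 449.1 CPM with SR9009, and 185.0, 169.1, 144.0 and 155.4 CPM with DMSO. The SR9009 and LPS libraries were the highest and the DMSO libraries the lowest, with no overlap with the other groups. Both agents raised it: 1.31 ± 0.19 for SR9009 versus DMSO (adjusted p = 0.00517 in edgeR's test), 0.93 ± 0.19 for SR9009 and LPS versus LPS (adjusted p = 0.0232) and 1.41 ± 0.20 for LPS versus DMSO (adjusted p = 3.31e-05). Its calls for LPS versus DMSO and for SR9009 and LPS versus SR9009 were kept in all 16 other settings. Those for SR9009 versus DMSO and for SR9009 and LPS versus LPS were each kept in 12 of 16. Both were lost without mouse 2, 3 or 4. The pseudogene Esd-ps had at most 5 counts in a library.

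Aox1 encodes aldehyde oxidase, a molybdenum enzyme that oxidizes aldehydes and nitrogen heterocycles (chromosome 1, 58069090 to 58145572, plus strand), and it was the scarcest of the 10. It had 2.00, 1.94, 5.64 and 4.15 CPM with SR9009 and LPS, from 34, 33, 99 and 70 counts, and 0.0832, 0.305, 0.247 and 0.143 CPM with LPS, from 1, 4, 4 and 2 counts. It had 1.53, 2.48, 3.14 and 2.57 CPM with SR9009, from 22, 68, 78 and 76 counts, and 0.455, 1.04, 0.434 and 0.460 CPM with DMSO, from 10, 27, 13 and 14 counts. The 8 libraries with SR9009 were all above the 8 without it. Aox1 had the largest fold change of the 10 genes in both SR9009 comparisons, with a log2 fold change of 4.08 ± 0.53 for SR9009 and LPS versus LPS (adjusted p = 0.00105 in edgeR's test) and 2.02 ± 0.45 for SR9009 versus DMSO (adjusted p = 0.0441). It was lower with LPS than with DMSO (-1.57 ± 0.54, adjusted p = 0.029), but this call was lost in 7 of 16 other settings: without a filter, with limma-voom, on both FPKM scales and without mouse 2, 3 or 4. Over the 16 settings that log2 fold change ran from -1.84 to -0.06 and its adjusted p from 0.0134 to 0.574. The LPS libraries held few counts, so the size of the changes against them is imprecise. On the log2(FPKM + 1) scale, where such low values hardly count, the value against LPS was still called and that against DMSO was not. Over the 16 settings the call for SR9009 versus DMSO was kept in 9. That for SR9009 and LPS versus LPS was kept in 14.

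**Figure D2:**
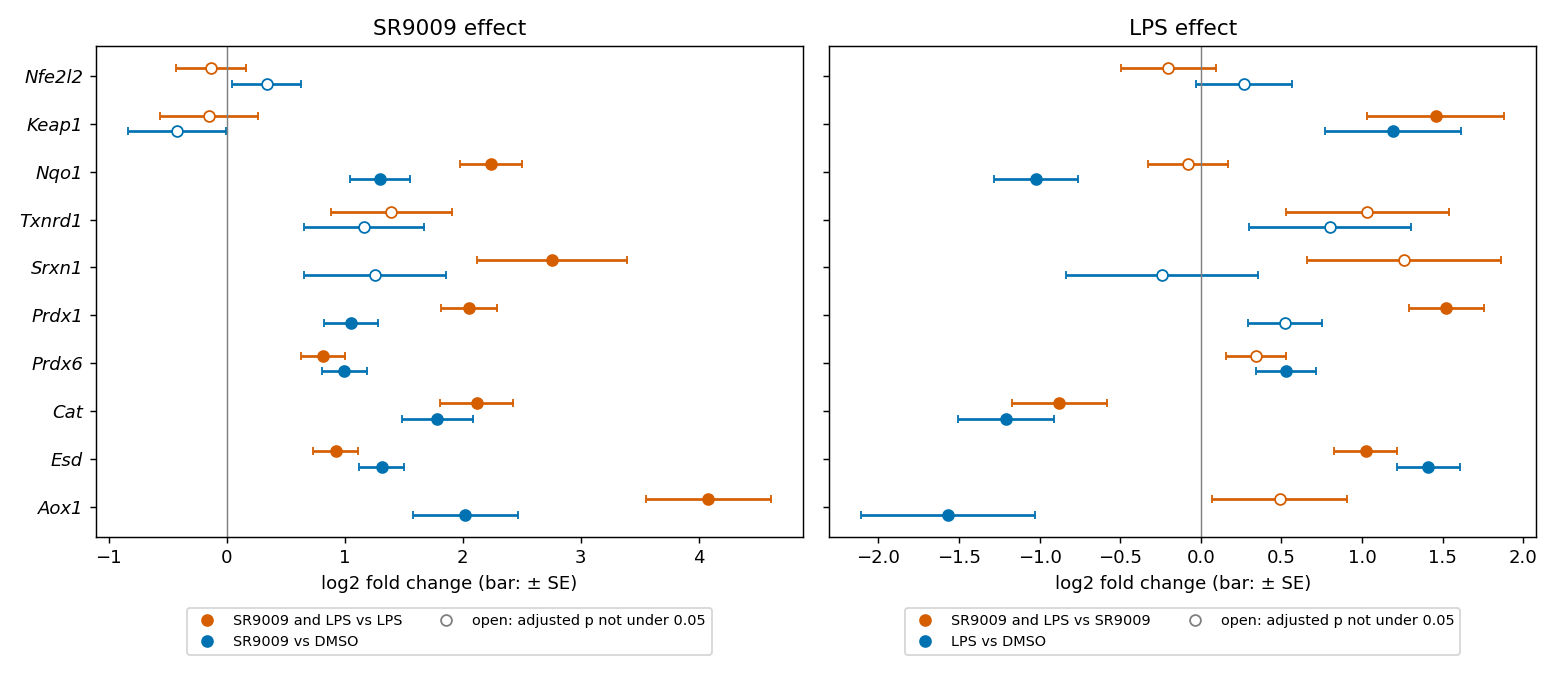
Log2 fold changes of the 10 genes (points, with bars of 1 SE). One panel shows the SR9009 comparisons and the other the LPS comparisons, and filled points passed an adjusted p of 0.05 in edgeR's test. The 8 targets lie between 0.81 and 4.08 in the SR9009 comparisons, while Nfe2l2 and Keap1 lie between -0.42 and 0.34 there.

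LPS moved the 10 genes in both directions. Against DMSO, LPS gave 3 genes called higher (Keap1, Prdx6 and Esd) and 3 called lower (Nqo1, Cat and Aox1) in edgeR's test. As 19.4% of all genes were called higher and 20.4% lower there, a count of 6 among 10 is not far from the 39.8% of all genes called in either direction. The LPS libraries lay above all DMSO libraries for 4 of the 10 genes and below for 3, beside 27% and 30.5% of all genes. With upper-quartile scaling 1 of the 10 was called higher and 3 lower, and 2126 of all genes higher and 3459 lower, against 2611 and 2741 with TMM scaling. Without mouse 2, mouse 3 or mouse 4, the number called was 3, 2 and 3. In macrophages that had SR9009, adding LPS gave 3 genes called higher (Keap1, Prdx1 and Esd) and 1 called lower (Cat), where 14.5% of all genes were called higher and 15.8% lower, 30.3% in all. There the groups did not overlap for 3 of the 10 genes, all higher, beside 13.9% of all genes higher and 13.4% lower. Without mouse 2, mouse 3 or mouse 4, 2 were called in each case. Cat in SR9009 and LPS versus SR9009 (-0.88 ± 0.30, adjusted p = 0.0343) did not keep its call when the mouse 1 library with SR9009 was left out (-0.42, adjusted p = 0.134) or with the mouse as a block (-0.82, adjusted p = 0.0529). Nqo1, which LPS lowered against DMSO, had -0.08 ± 0.25 for SR9009 and LPS versus SR9009 (adjusted p = 0.845), and Aox1 had 0.49 ± 0.42 (adjusted p = 0.414). The DMSO libraries serve both the LPS and the SR9009 comparison, so these are not independent.

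Whether the SR9009 effect differed with and without LPS was tested as an interaction. In edgeR's test 0 of the 10 genes passed, beside 0.00744% of all genes, and 3 had an unadjusted p under 0.05, as did 959 of the 13438 genes tested. These 3 were Aox1 with a difference of 2.06 ± 0.68 (log2, adjusted p = 0.48), Prdx1 with 1.00 ± 0.33 (adjusted p = 0.466) and Nqo1 with 0.94 ± 0.36 (adjusted p = 0.572), all in the direction of a larger SR9009 effect with LPS. DESeq2 and limma-voom also called 0 of the 10. The larger folds of these genes in the presence of LPS are therefore not shown to differ from those in its absence.

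The spread between mice was itself uneven. With SR9009 and LPS, the highest libraries for 8 of 8 targets were those of mice 3 and 4, against 2 of 8 targets with LPS, 5 of 8 with SR9009 and 2 of 8 with DMSO. Within each mouse, 32 of 32 ratios of a target were positive for SR9009 and LPS over LPS, from 0.39 to 4.86 on the log2 scale. For SR9009 over DMSO 31 of 32 were positive, from -0.68 to 2.85, the exception being Srxn1 in mouse 1. The 8 targets were read in the same libraries of 4 mice, so the 32 ratios are not independent. These counts were not made over all genes. Whether the order of the mice and the signs are particular to the targets was therefore not tested. For Srxn1 the ratio of SR9009 and LPS over LPS was 2.91 and 2.18 in mice 1 and 2 and 8.01 and 10.8 in mice 3 and 4. For LPS over DMSO, Txnrd1 had ratios of 0.812 and 0.969 in mice 1 and 2 and 2.60 and 2.12 in mice 3 and 4. The labels do not say what distinguishes these mice.

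**Figure D3:**
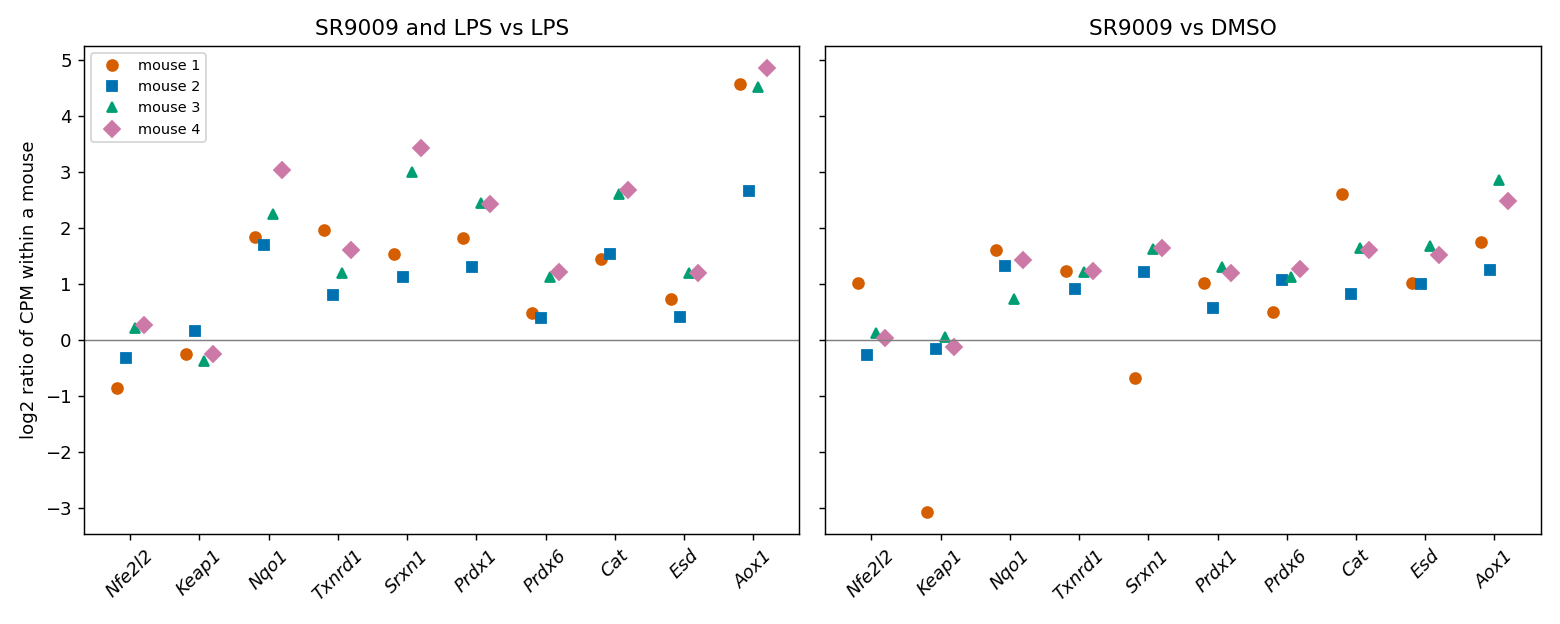
Log2 ratio of CPM within each of the 4 mice for the 10 genes, in 1 panel for SR9009 and LPS over LPS and 1 for SR9009 over DMSO. Symbols mark the mice and 0 means no difference. The targets lie above 0 in all 4 mice for SR9009 and LPS over LPS, with mice 3 and 4 highest for Srxn1 at 3.00 and 3.43.

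The calls for SR9009 rest on few libraries. Leaving the SR9009 library of mouse 1 out left 6 genes called higher against DMSO and 7 against LPS. Leaving out every library of mouse 2, of mouse 3 or of mouse 4 left 0, 0 and 0 called against DMSO, and 4, 1 and 0 against LPS, while the number of all genes called fell to 9, 18 and 1 and to 26, 9 and 5. A fit with the SR9009 and DMSO libraries alone called 0 of the 10, and 4 of all genes. Over the 16 other settings, the 6 genes called against DMSO kept a positive fold change.

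Per length, in the authors' FPKM (fragments per kilobase, scaled to library size), Prdx1 had the highest mean of the 10 genes in all 4 groups, although Cat overlapped it with SR9009 alone. With SR9009 and LPS, Prdx1 averaged 1350 ± 410 FPKM and did not overlap the next, Esd, at 242.0 ± 56.9. After Esd, Cat averaged 217.3, Srxn1 122.1, Nfe2l2 89.2, Txnrd1 74.1, Prdx6 36.3 and Keap1 33.8 FPKM, and each neighbour in that order overlapped, before Nqo1 at 8.46 and Aox1 at 0.389 FPKM. In DMSO macrophages Prdx1 averaged 222.7 ± 20.4 FPKM, Cat 113.9 ± 10.6, Nfe2l2 79.8 ± 15.6, Esd 47.2 ± 4.96 and Srxn1 21.1 ± 2.39 (SD, n = 4 each). Keap1, Txnrd1 and Prdx6 followed at 16.1, 16.0 and 14.1 FPKM and overlapped one another, and Nqo1 at 3.57 and Aox1 at 0.0668 FPKM came last. With LPS, Esd lay above Cat, at 129.6 ± 3.58 and 51.1 ± 8.65 FPKM without overlap, whereas with DMSO Cat lay above Esd.

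The genes whose pattern over the 16 libraries was closest to that of Nfe2l2 and of Nqo1 were ranked by the root mean square difference of centred log2 CPM, over 9394 protein-coding genes. For Nqo1 the closest was Cat at 0.38, then Rnf128 at 0.39, Prkar2b at 0.39, Zadh2 at 0.46 and Bhlhe41 at 0.47. Rnf128, for example, averaged 170.4 CPM with SR9009 and LPS, 48.3 with LPS, 299.4 with SR9009 and 93.8 with DMSO. For Nfe2l2 the closest were Lmbrd1 at 0.18, Micu2 at 0.18, Dbt at 0.19, Nsun3 at 0.20 and Pdia3 at 0.20. Only the 5 closest genes were kept, so the absence of the other 9 members there says little about their relation to Nfe2l2.

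The other genes of the pathway were counted in 7 lists, written with earlier results of these data known. Among these lists, the NRF2 targets for glutathione, heme and iron had the most calls with SR9009. Of these, 4 of 18 tested genes rose with SR9009 against DMSO and 7 of 18 with SR9009 and LPS against LPS, and 0 fell in either (edgeR's test). Over all genes 0.313% and 1.06% were called higher there. DESeq2 called 6 and 9 of the 18 higher and limma-voom 3 and 5. In either direction DESeq2 called 331 and 706 of all genes and limma-voom 102 and 232. Without the SR9009 library of mouse 1 edgeR called 9 and 11, while its calls over all genes went up to 242 and 1566. Without mouse 2, 3 or 4 it called 2, 1 and 1 against DMSO and 2, 2 and 1 against LPS. Those fits called 9, 18 and 1 of all genes against DMSO and 26, 9 and 5 against LPS. The median log2 fold changes of these 18 genes were 0.89 and 1.29, beside 0.01 and 0.02 over all genes. Gsta3, a glutathione S-transferase, averaged 33.4 ± 6.78 CPM in SR9009 and 3.53 ± 1.12 CPM in DMSO macrophages (log2 fold change 3.24, adjusted p = 5.77e-05). Gclm, the modifier subunit of the enzyme that starts glutathione synthesis, averaged 427.4 ± 192 CPM with SR9009 and LPS and 42.8 ± 11.5 CPM with LPS (3.32, adjusted p = 0.00056). Also called against LPS were Abcc1, an exporter of glutathione conjugates (1.57, adjusted p = 0.00271), and Gss, glutathione synthetase (1.89, adjusted p = 0.00791). The heme genes Hmox1 and Blvrb were not called in either SR9009 comparison in edgeR's test. Hmox1 had 0.88 against DMSO (adjusted p = 0.67) and 0.80 against LPS (adjusted p = 0.715). Blvrb had 0.574 (adjusted p = 0.553) and 0.675 (adjusted p = 0.443). Of the iron genes, Fth1 was called against DMSO (0.998, adjusted p = 0.0261) but not against LPS (0.272, adjusted p = 0.626). Slc40a1 was called against LPS (4.14, adjusted p = 0.00976) but not against DMSO (1.82, adjusted p = 0.294). Ftl1 was called in neither (0.54, adjusted p = 0.705, and 1.25, adjusted p = 0.253). The other calls against DMSO were Gclm (2.33, adjusted p = 0.00734) and Gsr (1.315, adjusted p = 0.0441).

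The rest of the thioredoxin and peroxiredoxin system, 16 genes tested, had 0 calls in either SR9009 comparison in edgeR's test, with medians of 0.05 against DMSO and 0.11 against LPS. Over all genes 0.878% were called against DMSO and 1.79% against LPS. So 0 calls among so few genes does not show a lack of response. Before adjustment, 3 of them had p under 0.05 with higher values and 1 with lower values against DMSO, and 2 with higher values against LPS. Those counts over all 13438 genes were 1070 higher and 500 lower against DMSO, and 1047 higher and 771 lower against LPS. DESeq2 called 0 and 1 of the 16 genes and limma-voom called 0 and 0. Without the SR9009 library of mouse 1, edgeR called 1 lower against DMSO, and 2 higher and 1 lower against LPS. With the mouse as a block it called 1 higher against LPS. With LPS against DMSO, 4 rose and 3 fell, and 7 of 16 is close to the 39.8% of all genes called there. Txn1, thioredoxin itself, averaged 376.4 ± 47.8 CPM with LPS and 132.9 ± 23.4 CPM with DMSO (adjusted p = 3.07e-05). Prdx5, a peroxiredoxin of mitochondria and peroxisomes, averaged 1308 ± 203 CPM with LPS and 223.8 ± 106 CPM with DMSO (log2 fold change 2.55, adjusted p = 0.00029). Sesn1, a sestrin linked to peroxiredoxin recycling, averaged 13.1 ± 4.71 CPM with LPS and 261.3 ± 20.3 CPM with DMSO (-4.31, adjusted p = 5.17e-08).

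Superoxide and peroxide removal, 10 genes tested beside Cat, had 0 calls in either SR9009 comparison in edgeR's test, in DESeq2 and in limma-voom, with 1 gene lower at an unadjusted p under 0.05 in each. As edgeR called 0.878% of all genes against DMSO and 1.79% against LPS, 0 calls in a list of this size is near those shares. The same shares stand beside the SR9009 counts of the other lists below. LPS raised Sod2, the mitochondrial superoxide dismutase, to 2149 ± 75.0 CPM, against 109.1 ± 45.5 CPM in DMSO macrophages (4.30, adjusted p = 4.45e-08), and 2 genes fell. These 3 calls among 10, beside 39.8% of all genes, became 2 higher and 6 lower without the SR9009 library of mouse 1, where 7835 of all genes were called. With the mouse as a block, 1 gene was called lower with SR9009 and LPS than with LPS. Of 15 genes for quinones, aldehydes and ketones, 0 were called with SR9009 against DMSO in edgeR's test, 2 had an unadjusted p under 0.05, and DESeq2 and limma-voom called 1 and 0. Against LPS 1 was called, the aldo-keto reductase gene Akr1b8 (1.61, adjusted p = 0.00976). There DESeq2 called 3 higher and 1 lower, limma-voom 1 higher, and edgeR with the mouse as a block 2 higher and 1 lower. EdgeR called 1 higher against DMSO when the SR9009 library of mouse 1 was left out, and 4 higher and 1 lower against LPS. With LPS against DMSO, 1 of the 15 rose and 5 fell, again beside 39.8% of all genes called. Of 14 genes that supply NADPH, 1 rose with SR9009 against DMSO, Mthfd2 of mitochondrial folate metabolism (1.49, adjusted p = 0.00414), and 0 were called against LPS in edgeR's test, where 6 had an unadjusted p under 0.05, DESeq2 called 3 and limma-voom 0. Against DMSO DESeq2 called 2 higher and 1 lower, limma-voom 1 higher and edgeR with the mouse as a block 2 higher. On leaving out the SR9009 library of mouse 1, edgeR called 2 higher against DMSO and 5 higher against LPS, and with the block 1 higher against LPS.

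The genes that control NRF2, 14 tested beside Nfe2l2 and Keap1, had 0 calls in either SR9009 comparison in edgeR's test and 3 and 2 genes higher at an unadjusted p under 0.05. Beside 0.878% and 1.79% of all genes called there, 0 of 14 is near the share of all genes. DESeq2 called 0 and 1 of the 14 and limma-voom 0 and 0. When the mouse 1 library with SR9009 was left out, edgeR called 1 and 2 higher, and with the mouse as a block 0 and 1. With LPS against DMSO 5 rose and 1 fell, and 6 of 14 is close to the 39.8% of all genes called. Among these were Maff, a small MAF partner of NRF2, at 10.1 ± 5.62 CPM with LPS and 1.24 ± 0.716 CPM with DMSO (3.03, adjusted p = 0.00379), and Fbxw11, a ubiquitin ligase subunit that can target NRF2, at 284.0 ± 75.5 CPM with LPS and 100.3 ± 12.1 CPM with DMSO (adjusted p = 0.000121). Bach2, of the BACH family of repressors that compete at these elements, was lower with LPS (-3.78, adjusted p = 0.000963). Its level was low throughout, at 0.113 ± 0.0541 CPM with LPS and 1.58 ± 0.680 CPM with DMSO. Bach1 of the same family was not called there (-0.07, adjusted p = 0.881 in edgeR's test). The NADPH oxidase makes superoxide. Of its 9 genes tested, edgeR called 0 with SR9009 against DMSO and against LPS, beside 0.878% and 1.79% of all genes. There 1 and 2 of the 9 were lower at an unadjusted p under 0.05, DESeq2 called 0 and 1, and limma-voom 0 and 0. EdgeR called 0 and 2, both lower, without the SR9009 library of mouse 1, and with the mouse as a block 0 and 1. With LPS against DMSO 6 of 9 rose, beside 19.4% of all genes, among them Cybb, its catalytic subunit, at 4811 ± 506 CPM with LPS and 1582 ± 542 CPM with DMSO (1.60, adjusted p = 0.00355).

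**Figure D4:**
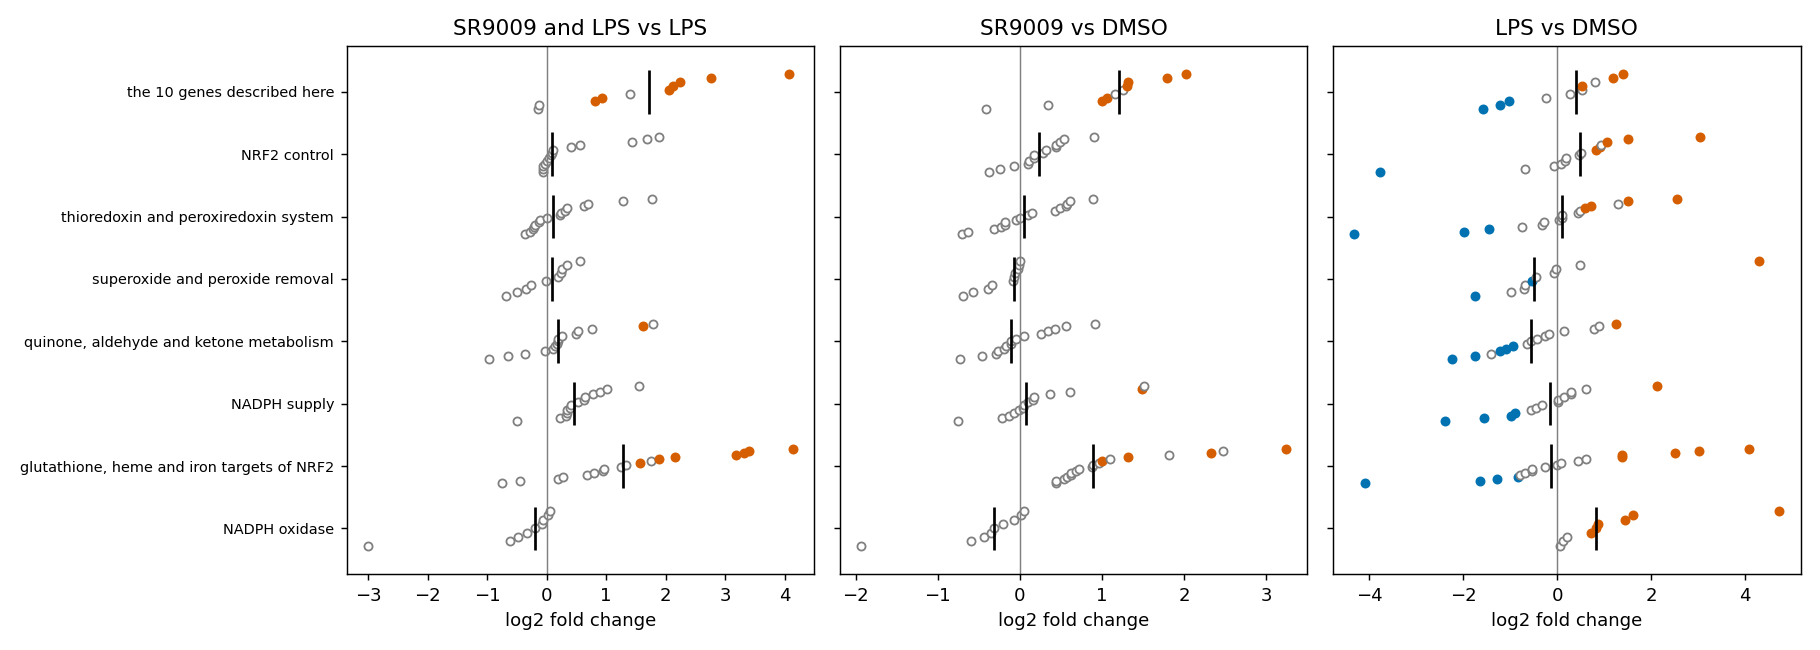
Log2 fold changes of the 10 genes and of the tested genes of each neighbouring list (rows), in 3 panels of which 2 show the SR9009 effect with and without LPS and 1 that of LPS over DMSO. Filled points are called in edgeR's test (orange higher, blue lower), and black lines are medians, which for the glutathione, heme and iron targets are 1.29 with LPS and 0.89 without it.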

How the data were processed

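The authors deposited raw counts per gene for 16 libraries (poly(A) capture, per the labels' protocols), with gene names, coordinates and lengths per the file headers. Per the submitters' processing notes, HISAT2 was the aligner and GRCm39 (mm39) the genome build. The counting tool, annotation release and strandedness are not stated there. The FPKM values, counts per gene length and library size, were computed by the authors and deposited per sample, and serve here for levels between genes and as an alternative unit.

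Of 56748 genes, 13438 passed filterByExpr in edgeR 4.0.16 (minimum count 10, minimum total 15; R 4.3.3). A robust quasi-likelihood model with TMM scaling took 1 mean for each group and all 16 libraries. All p-values were adjusted by the Benjamini-Hochberg method over all tested genes, with a threshold of 0.05. The common biological coefficient of variation was 0.377. SEs were derived from the test, as the absolute log2 fold change over the root of F. The groups share mice by their labels, so the fit with the mouse as a block, a paired analysis, is an alternative. DESeq2 1.42.0, limma 3.58.1 on voom values or log2(FPKM + pseudocount of 1 or 0.1), other scalings and filters, and leaving out libraries were the others. Of the tests, edgeR's for SR9009 versus DMSO was checked on simulated counts with planted changes. Those counts held no mouse effect and no outlying library, so the check covers neither. The 10 genes, the gene and marker lists and the rule for naming list genes (the called genes with the 4 smallest p per list and comparison) were chosen with earlier results of these data known. Not every gene under that rule is named. Some values outside it are also given, such as those of Hmox1, Blvrb, Ftl1, Slc40a1 and Bach1. Promoter windows came from RefSeq for GRCm38.p6, and their coordinates were not joined with those of the counts. Figures were drawn with matplotlib 3.10.9.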

Additional observations from a re-analysis of the deposited data

Results flagged for a closer look

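Of 40 sets of 4 libraries (10 genes in 4 groups), 3 held a library far from the other 3 by Dixon's test (95% level), where chance gives about 1 in 20. Nfe2l2 had 710.2 CPM in the SR9009 library of mouse 1, against 260.7 to 315.3 CPM in the other SR9009 libraries. Keap1 had 9.06 CPM in the same library, against 69.8 to 77.1 CPM. That library also had the fewest genes detected, and the part of this in both values was not tested. Aox1 had 1.04 CPM in the DMSO library of mouse 2, against 0.434 to 0.460 CPM in the other DMSO libraries.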

How the results depend on the processing

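Among the values of the 10 genes under other settings, 679 kept direction and side of the threshold, 89 lost a call, 7 gained one and 15 changed sign, and none of the 15 was a called value. The sign changes arose on leaving out mouse 1 or its SR9009 library, and on leaving out that library with the replicate block. For Nfe2l2 they gave -0.098, -0.153 and -0.159 in SR9009 versus DMSO, 0.448, 0.305 and 0.322 in SR9009 and LPS versus SR9009, 0.205, 0.049 and 0.06 in the interaction, and 0.107 in SR9009 and LPS versus LPS without mouse 1. The far ends of the fits that leave out 1 mouse were 0.535, -0.441 and -0.677 for the first 3 of these. For Nqo1 in SR9009 and LPS versus SR9009 they gave 0.267, 0.173 and 0.171, with a far end of -0.312. Without that library the Keap1 interaction was -0.012, and -0.051 with the block too, with a far end of 0.511. Counts of the 10 genes called were 2, 4 and 3 without a filter (for SR9009 over DMSO, for SR9009 and LPS over LPS, and for LPS over DMSO). With only the groups compared they were 0 in SR9009 versus DMSO and 2 in SR9009 and LPS versus SR9009. Leaving out 1 mouse gave 0 to 5 in SR9009 versus DMSO, 0 to 7 in SR9009 and LPS versus LPS, 2 to 6 in LPS versus DMSO, 2 to 3 in SR9009 and LPS versus SR9009 and 0 to 0 in the interaction. Over all genes those fits called 1 to 194, 5 to 963, 3506 to 7248, 2430 to 5837 and 0 to 18 in the same order of comparisons. With the replicate block, the mouse number, all-gene counts were 198 in SR9009 versus DMSO, 535 in SR9009 and LPS versus LPS and 15 in the interaction, and among the 10 genes it gained Txnrd1 (SR9009 and LPS versus LPS) and Prdx1 (LPS versus DMSO), lost Cat (SR9009 and LPS versus SR9009) and changed no other call. DESeq2 called 331, 706 and 103 genes in those 3 tests, limma-voom 0 in the interaction, log2(FPKM + 1) 49 and log2(FPKM + 0.1) 10. No filter gave 149 in SR9009 and LPS versus LPS. Only the groups compared gave 4 in SR9009 versus DMSO, 486 in SR9009 and LPS versus LPS and 2113 in SR9009 and LPS versus SR9009. Without the SR9009 library of mouse 1, 242 genes were called in SR9009 versus DMSO, 1566 in SR9009 and LPS versus LPS, 7835 in LPS versus DMSO, 5935 in SR9009 and LPS versus SR9009 and 41 in the interaction. With the block as well, an alternative chosen after seeing the data, the counts were 586, 2900, 8847, 6845 and 271 in the same order. Upper-quartile scaling put the median of all genes in LPS versus DMSO at -0.28, against -0.08 with TMM, and kept 1 of the 10 genes higher and 3 lower there. The causes were not tested. With 4 libraries per group, low counts limit Aox1 most.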
